A study of Homo sapiens with 6 samples.

Results

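This account covers 10 genes of the antioxidant response driven by the transcription factor NRF2 and of the defence against ferroptosis: HMOX1, NQO1, GCLC, GCLM, TXNRD1, SRXN1, SLC7A11, FTH1, FTL and GPX4. They were taken by gene symbol from a table of 58302 genes, each symbol matched 1 row, and all 10 passed the filter on low counts. The cells were MDA-MB-231-DR, a doxorubicin-resistant derivative of MDA-MB-231, an established human line of triple-negative breast cancer. 3 libraries came from control cells and 3 from cells treated with cyperotundone (CYT), a compound of the plant Cyperus rotundus. The resistant line is kept in medium with a low concentration of doxorubicin, so both groups carry this history. The CYT dose and time for these libraries are not given in the sources used here, and the cell line field of the labels names the parental line while the titles name the resistant one. The labels do not say that the 3 libraries of a group came from separate cultures, and the study's general statement on independent experiments does not name them, so the p-values measure the spread between these libraries, which may be technical.

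NRF2, the product of NFE2L2, is held in the cytoplasm by KEAP1 and passed to a CUL3 and RBX1 ubiquitin ligase for destruction. When electrophiles or oxidants modify KEAP1, NRF2 builds up in the nucleus and binds antioxidant response elements with a small MAF partner, at sites that the repressor BACH1 can also occupy. Ferroptosis is a form of cell death that depends on iron and on peroxidation of membrane lipids, and cystine import, glutathione synthesis and GPX4 oppose it.

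Control libraries held 14050849 to 17770102 counts, and those of CYT-treated cells 13056270 to 14106017. Levels between libraries are given as CPM (a count scaled to a library total of 1e+06), with totals adjusted by TMM factors, which correct for composition, and a gene was called where the edgeR quasi-likelihood test gave an adjusted p under 0.05 over 15572 tested genes. All 8 MDA-MB-231 markers were detected, with a summed level of 5280.3 to 6839 CPM in control and 3111 to 3938 CPM in CYT libraries. Their part in the results below was not tested. Of 8 luminal markers, ESR1, PGR, TFF1 and CDH1 were at or near 0, with group means of at most 0.574 CPM, while KRT19, XBP1, FOXA1 and GATA3 were expressed. Summed luminal markers held 346 to 579 CPM in control and 122 to 170.5 CPM in CYT libraries, and most of this difference was KRT19 (mean 287 CPM in control and 26.3 CPM in CYT, edgeR adjusted p = 0.00187). Fibroblast and endothelial markers held 21.8 to 37.7 CPM in control and 7.97 to 10.9 CPM in CYT libraries, where COL1A1 and PDGFRB were called lower and the endothelial gene KDR higher, from 0.288 to 1.42 CPM. Leukocyte markers held 8.56 to 25.5 CPM against 10.2 to 19.3 CPM, and CD14 was called higher, from 0.733 to 3.90 CPM. Most of these sums was CD68, except in CYT replicate 2, where CD68 held 3.35 CPM and CD14 4.20 CPM. Erythroid markers held 0 CPM against 1.42 to 3.02 CPM, mostly the transcription factor KLF1, with the globin genes at or near 0. Fewer cells of a type and less RNA per cell cannot be told apart in such bulk libraries.

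The libraries numbered 2 stood apart from the others in both groups. Deviations from the group mean over all tested genes correlated with r = 0.458 between control replicate 2 and CYT replicate 2, and with r between -0.367 and -0.214 between a library numbered 2 and one of another number in the other group. Since deviations cancel out within a group, the positive r brings negative ones with it, and these add no separate evidence. Among the 10 genes, TXNRD1 was over 2-fold higher in replicate 2 than in the mean of replicates 1 and 3 in both groups, which held for 1.29% of all tested genes. For several genes the value without both of them is given beside the main one.

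The antioxidant response element has the core TGACNNNGC, and a looser form reads TGAGNNNGC. Both were searched on both strands in RefSeq promoter windows (assembly GRCh38.p14) that span 250 bases before to 50 after a gene's start. Windows exist here for 7 of the 10 genes, and HMOX1, SLC7A11 and FTH1 were not matched. Of 35116 windows of this length, 13.3% held TGACNNNGC, 18.3% held TGAGNNNGC and 29.1% held either. The stretches around 4 matches are shown because they hold the core or, in NQO1, only the looser form, in the 1 gene that was called and in GCLM and TXNRD1, which were not. Each runs 5′ to 3′ on the strand of its gene, with the match in capitals.
NQO1, chr16:69726641-69726709, TGAGNNNGC on the opposite strand: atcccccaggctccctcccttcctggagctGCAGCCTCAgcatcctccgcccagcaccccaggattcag
GCLM, chr1:93909431-93909494, TGACNNNGC on the opposite strand: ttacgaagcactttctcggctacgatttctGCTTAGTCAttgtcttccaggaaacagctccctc
TXNRD1, first start, chr12:104215650-104215718, TGACNNNGC on the same strand: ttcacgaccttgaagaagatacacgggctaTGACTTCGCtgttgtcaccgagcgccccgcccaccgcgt
TXNRD1, second start, chr12:104286900-104286968, TGACNNNGC on the opposite strand: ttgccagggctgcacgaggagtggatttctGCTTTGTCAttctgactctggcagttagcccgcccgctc

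The matches shown begin at position -119 from the start in NQO1, at -34 in GCLM, and at -99 and -102 from the first and second start in TXNRD1. The same windows held 3 more matches, TGAGNNNGC at -8 in GCLM, TGACNNNGC at -8 from the first TXNRD1 start and TGAGNNNGC at -198 from the second. The NQO1 window held no TGACNNNGC, and windows of GCLC, SRXN1, FTL and GPX4 held neither form. These absences say only that the letters are not in those windows. Sequence outside the windows was not searched, so whether NQO1 has the core further from its start was not tested. A match is a stretch of letters and was not tested for binding.

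Of the 10 genes, 1 rose after CYT (NQO1) and 0 fell, where 15.7% of all tested genes were called higher, 12.9% lower and 28.6% in either direction. With an absolute log2 fold change over 1 as a second criterion the count was again 1 of 10, beside 27.4% of tested genes. At an unadjusted p under 0.05 the counts were 1 higher and 1 lower (HMOX1), and DESeq2 also called 1 higher and 1 lower. Over all tested genes 21.5% were higher and 19.4% lower at the unadjusted threshold, and DESeq2 called 18.8% higher and 15.1% lower. The median log2 fold change was 0.39 over the 10 genes and 0.01 over all tested genes. Control and CYT libraries did not overlap in CPM for 4 of the 10 genes (NQO1, SRXN1 and FTH1 above, HMOX1 below), where 46.1% of all tested genes did not overlap. Within same-numbered pairs, 4 genes were higher in CYT in all 3 pairs (NQO1, GCLC, SRXN1 and FTH1), where 32.8% of tested genes were, and 3 were lower in all 3 pairs (HMOX1, GCLM and TXNRD1), where 33.6% were. In all, 7 of the 10 kept 1 direction over the pairs, against 66.4% of tested genes. 3 against 3 libraries allow no exact permutation p under 0.1 for a single gene.

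**Figure D1:**
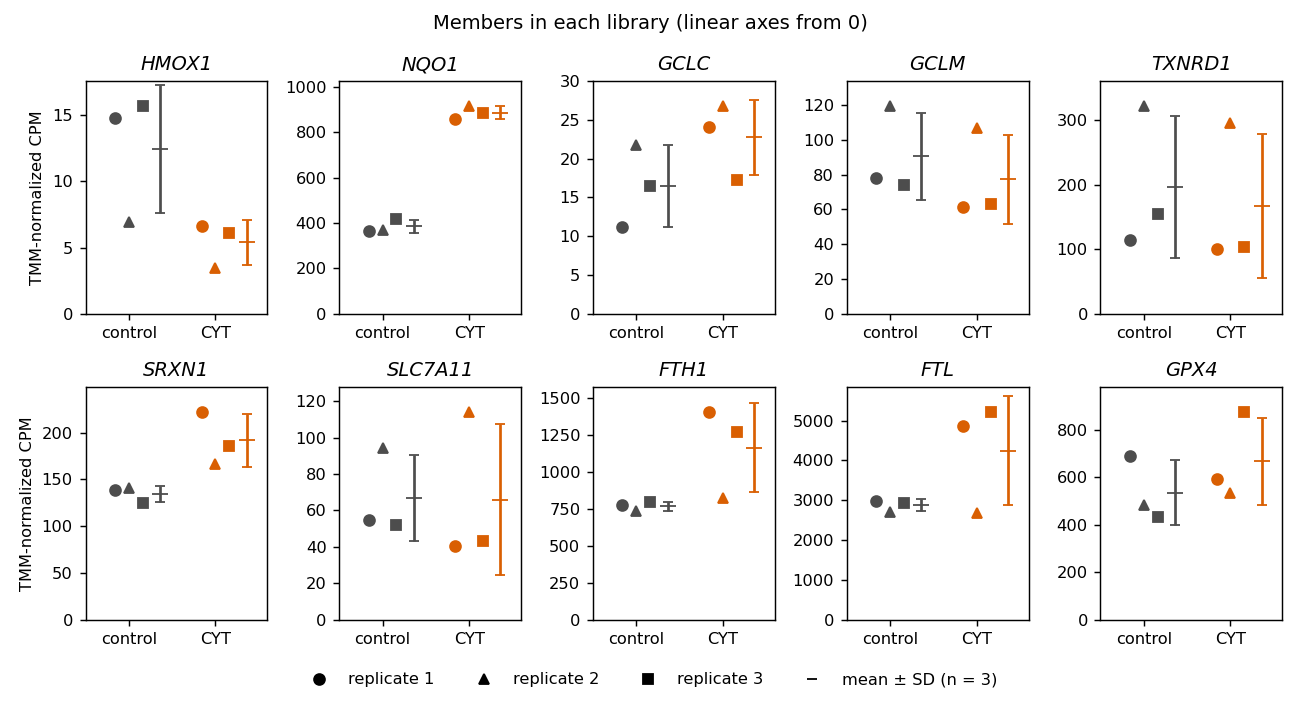
Each panel plots 1 gene, with TMM-normalized CPM on the y axis from 0 and the control and CYT groups on the x axis, 1 point per library (circle, triangle and square for replicates 1, 2 and 3) and beside them the group mean with a bar of 1 SD (n = 3). NQO1 sits between 366 and 418 CPM in control and between 858 and 917 CPM in CYT, while the TXNRD1 libraries numbered 2 sit above the others in both groups.

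NQO1 reduces quinones by a 2-electron step and is a classic NRF2 target (ENSG00000181019, chr16:69706996-69726951, minus strand, GRCh38). It held 366, 370.5 and 418 CPM in the control libraries and 858, 917 and 888 CPM in the CYT libraries. Every CYT library lay above every control library, and the spread within each group was small beside the gap. The mean was 385 ± 28.6 CPM (SD, n = 3) in control and 888 ± 29.9 CPM (SD, n = 3) in CYT. NQO1 rose by 1.21 on the log2 scale (SE 0.25, edgeR adjusted p = 0.00698). Same-numbered pairs gave CYT to control ratios of 2.34, 2.48 and 2.13. The call held in 19 of 19 alternatives, with log2 fold changes from 0.94 to 1.35. The antisense gene AC092115.2 that overlaps NQO1 had at most 7 counts in any library.

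HMOX1 encodes the inducible heme oxygenase, which splits heme into biliverdin, carbon monoxide and free iron (ENSG00000100292, chr22:35380361-35394214, plus strand). It held 14.8, 6.92 and 15.7 CPM in control and 6.63, 3.42 and 6.12 CPM in CYT, from 130 to 238 counts in control and 48 to 94 counts in CYT. The groups did not overlap, although control replicate 2 came close to CYT replicate 1, and replicate 2 was the lowest library of both groups. The mean was 12.5 ± 4.81 CPM (SD, n = 3) in control and 5.39 ± 1.73 CPM (SD, n = 3) in CYT, a log2 fold change of -1.21 (SE 0.43) with an edgeR adjusted p = 0.0604, so HMOX1 was not called. With the replicate number as a block the log2 fold change was -1.18 and the adjusted p 0.01035. Without the libraries numbered 2 it was -1.22 with an adjusted p = 0.01003, and without control replicate 2 alone it was -1.51 with an adjusted p = 0.02956. DESeq2 gave -1.17 with an adjusted p = 0.0368. HMOX1 was called in 6 of 19 alternatives in all, and the adjusted p reached 0.1813 without control replicate 3. CYT to control ratios within pairs were 0.449, 0.494 and 0.390. HMOX2, the constitutive heme oxygenase, held 33.4, 25.9 and 75.9 CPM in control and 56.8, 25.7 and 40.3 CPM in CYT (log2 fold change -0.14, SE 0.46, adjusted p = 0.851). HMOX2 groups overlapped, and its direction turned in 3 of 19 alternatives.

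The subunits of glutamate-cysteine ligase, the rate-limiting enzyme of glutathione synthesis, did not pass the test. GCLC, the catalytic subunit (ENSG00000001084, chr6:53497341-53616970, minus strand), held 11.2, 21.7 and 16.5 CPM in control and 24.1, 26.8 and 17.3 CPM in CYT. CYT replicate 3 lay below control replicate 2, so the groups overlapped. Its log2 fold change was 0.46 (SE 0.35, adjusted p = 0.350), and ranged from 0.23 without control replicate 1 to 0.69 without control replicate 2. GCLM, the modifier subunit (ENSG00000023909, chr1:93885205-93909456, minus strand), held 78.3, 119.5 and 74.0 CPM in control and 61.6, 107 and 63.2 CPM in CYT. Replicate 2 was the highest library in both groups, 1.57 and 1.72 times the mean of the other two. Its log2 fold change was -0.23 (SE 0.34, adjusted p = 0.653), and -0.26 without the libraries numbered 2, while each pair gave a ratio under 1 (0.786, 0.897 and 0.854).

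The count ratio of GCLC to GCLM within a library does not depend on scaling between libraries. It was 0.143, 0.182 and 0.224 in control and 0.392, 0.25 and 0.274 in CYT. All CYT ratios lay above all control ratios, and the mean log2 ratio was 0.74 higher in CYT (exact two-sided permutation test, p = 0.1, the smallest it can give, adjusted over 3 ratios 0.3). The difference within pairs was 1.45, 0.46 and 0.29 on the log2 scale. Control replicate 1 had the lowest ratio of its group and CYT replicate 1 the highest of its own, and the difference was 0.57 without the former and 0.54 without the latter.

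**Figure D2:**
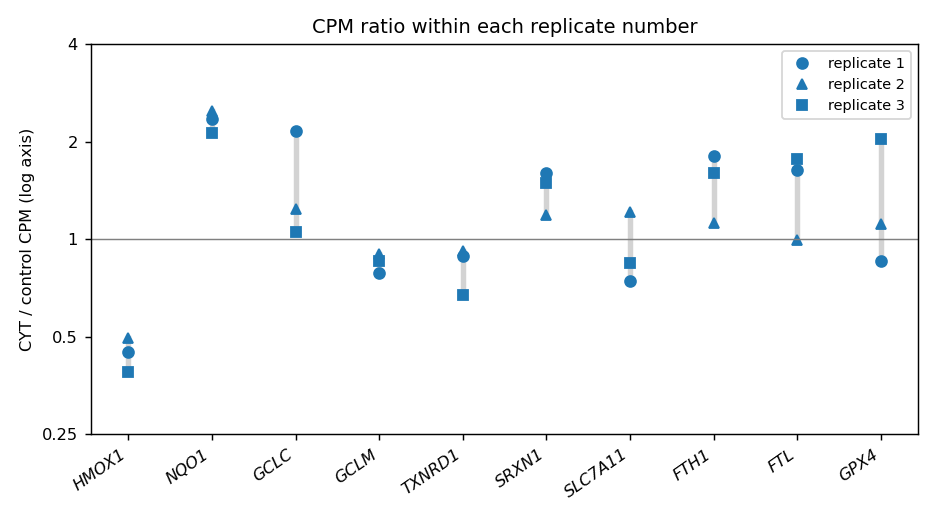
The CYT to control ratio of TMM-normalized CPM is plotted on a log axis for each gene, 1 point per same-numbered pair, with a line at 1. The NQO1 points lie between 2.13 and 2.48 and the HMOX1 points between 0.390 and 0.494, while SLC7A11, FTL and GPX4 have points on both sides of the line.

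SLC7A11 is the light chain of the cystine and glutamate exchanger that feeds glutathione synthesis, and SLC3A2 is its heavy chain. SLC7A11 (ENSG00000151012, chr4:138164097-138242349, minus strand) held 54.6, 94.1 and 51.8 CPM in control and 40.4, 114 and 43.5 CPM in CYT. Replicate 2 was the highest library in both groups, at 1.77 times the mean of the others in control and 2.71 times in CYT, and the groups overlapped. Its log2 fold change was -0.02 (SE 0.45, adjusted p = 0.978), with pair ratios of 0.741, 1.21 and 0.841, and its sign turned in 8 of 19 alternatives. Without the libraries numbered 2 it was -0.31 with an adjusted p = 0.232. SLC3A2 held 216 to 313 CPM in control and 235 to 314 CPM in CYT (log2 fold change 0.07, SE 0.28, adjusted p = 0.883). The SLC7A11 to SLC3A2 count ratio was 0.174, 0.339 and 0.240 in control and 0.137, 0.483 and 0.139 in CYT. The replicates numbered 2 gave the highest ratio of each group, and the groups overlapped (log2 difference -0.21, exact permutation p = 0.8, adjusted 0.8).

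TXNRD1, the cytosolic thioredoxin reductase and a selenoprotein (ENSG00000198431, chr12:104215779-104350305, plus strand), held 114, 322 and 154 CPM in control and 101, 295 and 104 CPM in CYT. Replicate 2 was 2.40 times the mean of the other libraries in control and 2.88 times in CYT, and the groups overlapped. The log2 fold change was -0.24 (SE 0.51, adjusted p = 0.760) and turned positive in 3 alternatives that left out 1 library. Without the libraries numbered 2 it was -0.36 with an adjusted p = 0.243. Each pair gave a ratio under 1 (0.888, 0.916 and 0.671). RPL18AP3, a ribosomal protein pseudogene inside TXNRD1 on the same strand, held 31787, 11150 and 20295 counts in control and 12495, 5944 and 13277 counts in CYT. It was lowest in the libraries where TXNRD1 was highest. How reads that fall in both genes were counted is not stated in the sources used here.

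SRXN1, sulfiredoxin, restores over-oxidized peroxiredoxins (ENSG00000271303, chr20:646615-653370, minus strand). It held 139, 140.4 and 125 CPM in control and 222, 167 and 186 CPM in CYT. Every CYT library lay above every control library, with CYT replicate 2 the nearest to them. The means were 135 ± 8.82 CPM (SD, n = 3) and 192 ± 28.2 CPM (SD, n = 3), and the log2 fold change of 0.51 (SE 0.27) did not pass the test (adjusted p = 0.184). Without the libraries numbered 2 it was 0.66 with an adjusted p = 0.0418, the only call in 19 alternatives, and with the GC content and length offset it was 0.29 with an adjusted p = 0.224.

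FTH1 and FTL encode the heavy and light subunits of ferritin, which stores iron, the heavy one with ferroxidase activity. FTH1 (ENSG00000167996, chr11:61959718-61967660, minus strand) held 778, 735 and 795 CPM in control and 1406, 824 and 1269 CPM in CYT. The groups did not overlap, but CYT replicate 2 lay close to the control libraries. The means were 769 ± 30.7 CPM (SD, n = 3) and 1166 ± 304 CPM (SD, n = 3), a log2 fold change of 0.60 (SE 0.29, adjusted p = 0.144). Without CYT replicate 2 it was 0.79 with an adjusted p = 0.0298, and without both libraries numbered 2 it was 0.80 with an adjusted p = 0.0351. With an offset for GC content and gene length it was 0.23 with an adjusted p = 0.361. Counts on 16 of 25 annotated FTH1 pseudogenes summed to between 10.3% and 23.0% of the FTH1 count, so FTH1 levels are uncertain by reads that could be split among these copies. With these counts added to FTH1 its log2 fold change was 0.67 (edgeR adjusted p = 0.0972), and it was again not called.

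FTL (ENSG00000087086, chr19:48965301-48966878, plus strand) held 2983, 2707 and 2941 CPM in control and 4851, 2681 and 5211 CPM in CYT. CYT replicates 1 and 3 lay above all control libraries, and CYT replicate 2 lay below all of them. The log2 fold change was 0.56 (SE 0.30, adjusted p = 0.193). Without CYT replicate 2 it was 0.80 with an adjusted p = 0.0334, and without both libraries numbered 2 it was 0.79 with an adjusted p = 0.0649 and not called. With an offset for GC content and gene length it was -0.03 with an adjusted p = 0.923, while that offset moved the median of all tested genes from 0.01 to -0.10. FTL pseudogenes summed to between 0.711% and 1.93% of the FTL count.

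The FTH1 to FTL count ratio was 0.261, 0.272 and 0.270 in control and 0.290, 0.307 and 0.243 in CYT, and the groups overlapped. The log2 difference was 0.06 (exact permutation p = 0.6, adjusted 0.8). The 10 genes together took 0.504 ± 0.0221% (SD, n = 3) of all counts in control and 0.748 ± 0.119% (SD, n = 3) in CYT libraries. FTL alone took 0.285 ± 0.00706% and 0.422 ± 0.115% (SD, n = 3 each).

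GPX4, the selenoenzyme that reduces lipid hydroperoxides in membranes with glutathione (ENSG00000167468, chr19:1103926-1106791, plus strand), held 689, 482 and 431 CPM in control and 591, 534 and 874 CPM in CYT. The groups overlapped, and the pair ratios ran from 0.858 to 2.03. Its log2 fold change was 0.32 (SE 0.31, adjusted p = 0.475), and ranged from 0.10 without CYT replicate 3 to 0.53 without control replicate 1.

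**Figure D3:**
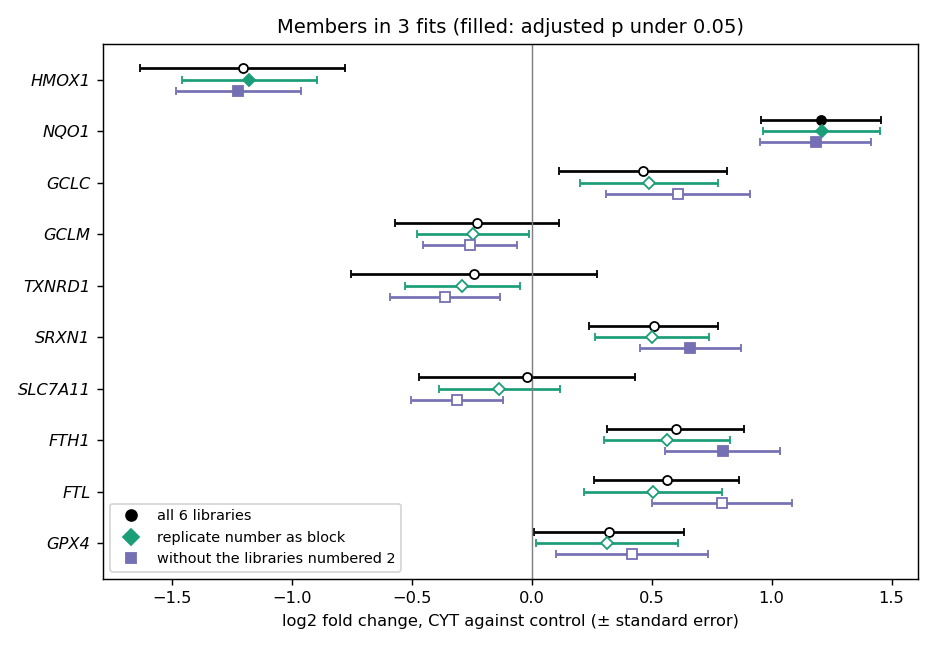
Log2 fold changes of CYT against control are plotted with their standard errors for each gene from 3 edgeR fits, over all 6 libraries, with the replicate number as a block, and without the libraries numbered 2. Filled points have an adjusted p under 0.05, which NQO1 has in all 3 fits, HMOX1 in the latter pair, and SRXN1 and FTH1 only without the libraries numbered 2.

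Levels between genes were compared per length, in FPKM (fragments scaled by transcript length and library total). In control cells the mean FPKM was highest for FTL at 3244 ± 80.4 (SD, n = 3), far above FTH1 at 125 ± 5.70 and GPX4 at 95.1 ± 19.5. NQO1 followed at 66.9 ± 6.58 and SRXN1 at 49.5 ± 4.86. GCLM (11.1 ± 3.76) and TXNRD1 (11.0 ± 6.84) did not differ beyond their spread, and in FPKM neither stood clear of SLC7A11 (6.80 ± 2.84). HMOX1 (3.34 ± 1.18) overlapped SLC7A11 in spread, and GCLC (1.19 ± 0.448) was lowest. In CYT libraries the mean FPKM was 157 ± 14.4 for NQO1, 191 ± 43.4 for FTH1 and 120.0 ± 24.6 for GPX4 (SD, n = 3 each). The length that FPKM and count imply for FTH1 was 6097 bases, against 2030 exonic bases in GENCODE release 29. It was also longer for TXNRD1 (18142 against 6708), GPX4 (5525 against 2019) and NQO1 (5710 against 3254), among others. For FTL (878) and SRXN1 (2698) the lengths were equal, so FPKM sets these higher beside the others than GENCODE lengths do. With GENCODE lengths FTH1 kept its place in control, at 379 ± 15.1 CPM per kilobase beside FTL at 3277 ± 169 (SD, n = 3 each). Only GCLM and TXNRD1 changed places in control, at 16.7 ± 4.64 and 29.3 ± 16.5 CPM per kilobase. On that scale both stood above SLC7A11 (6.93 ± 2.45) beyond their spread, unlike in FPKM. In CYT libraries, levels per kilobase of GENCODE length were 273 ± 9.19 CPM for NQO1, 330.2 ± 90.1 CPM for GPX4 and 574 ± 149.9 CPM for FTH1 (SD, n = 3 each). NQO1 and GPX4 did not differ beyond their spread on this scale.

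The genes with a profile over the 6 libraries most like that of NQO1 were CCDC71L, HARBI1 and EMC3, with root mean square differences in centred log2 CPM of 0.06, 0.07 and 0.08 among 10561 protein-coding candidates. Their likeness rests mainly on the step between the groups, since their log2 fold changes were 1.27, 1.33 and 1.37.

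Around these genes, 145 of 153 pathway genes from 8 lists were tested, and 18 rose and 17 fell, 24.1% in all against 28.6% of all tested genes. Their median log2 fold change was 0.07. All 35 called genes kept their direction in every alternative run, and 14 of them lost their call in at least 1. The counts below stand beside 15.7% higher and 12.9% lower over all tested genes without a block, 20% and 19.8% with the replicate block, and 21.6% and 26.0% with the GC content and length offset.

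Of 13 NRF2 pathway regulators, 2 rose and 0 fell, with a median log2 fold change of 0.10. Counts at an unadjusted p under 0.05 were 4 higher and 1 lower, DESeq2 called the same numbers, and the replicate block gave 4 higher and 0 lower, and the GC content and length offset 4 higher and 1 lower. NFE2L1, an NRF2 relative that controls proteasome genes, held 231, 154 and 301 CPM in control and 743, 708 and 758 CPM in CYT. The groups were far apart, and NFE2L1 rose by 1.69 (SE 0.31, adjusted p = 0.00408). RBX1, the ring subunit of the ligase that KEAP1 serves, rose by 0.98 (SE 0.30, adjusted p = 0.0352) and lost its call in 5 of 19 alternatives. NFE2L2 itself held 37.3, 53.8 and 39.8 CPM in control and 41.8, 32.5 and 38.0 CPM in CYT. These groups overlapped (log2 fold change -0.22, SE 0.29, adjusted p = 0.607), as did those of KEAP1 (-0.04, SE 0.33, adjusted p = 0.946) and BACH1 (0.51, SE 0.48, adjusted p = 0.460). BACH1 was at 36.1 CPM in CYT replicate 2 and at most 19.6 CPM in every other library, and its log2 fold change was 0.13 without the libraries numbered 2.

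Of 21 other NRF2 target enzymes tested, 3 rose and 3 fell, with a median of -0.19, and 5 rose and 4 fell with the replicate block and 4 rose and 6 fell with the GC content and length offset. EPHX1, microsomal epoxide hydrolase, held 28.7, 16.2 and 20 CPM in control and 167, 94.5 and 168 CPM in CYT. It rose by 2.72 (SE 0.37, adjusted p = 0.00126), with no overlap. The efflux pump ABCC2 rose by 2.04 (SE 0.52, adjusted p = 0.0171) from 0.860 to 3.52 CPM, and PRDX1, a peroxiredoxin that removes hydrogen peroxide, rose by 1.46 (SE 0.28, adjusted p = 0.00503). TKT, transketolase of the pentose phosphate pathway, held 1068, 492 and 756 CPM in control and 238, 134 and 284 CPM in CYT, and it fell by 1.82 (SE 0.39, adjusted p = 0.00799). PIR fell by 1.62 (SE 0.40, adjusted p = 0.0154) and the efflux pump ABCC1 by 1.20 (SE 0.34, adjusted p = 0.0262). ABCC2 lost its call in 2 of 18 alternatives, PIR in 3 of 19 and ABCC1 in 4 of 19.

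Of 23 tested genes of glutathione synthesis and use, 1 rose and 2 fell, with a median near 0 (-0.0040), 2 rose and 4 fell with the replicate block, and 2 rose and 7 fell with the GC content and length offset. GSTM3, a glutathione transferase, held 44.3, 64.7 and 53.3 CPM in control and 290.3, 308 and 307 CPM in CYT, and it rose by 2.48 (SE 0.29, adjusted p = 0.000734). GSR, which regenerates reduced glutathione, held 96.8, 88.5 and 93.2 CPM in control and 49.9, 44.3 and 47.0 CPM in CYT. It fell by 0.98 (SE 0.27, adjusted p = 0.0224), and 4 of 19 alternatives, each without 1 library, ended the call. CHAC1, which degrades glutathione, fell by 2.36 (SE 0.61, adjusted p = 0.0175), from 24.7 ± 19.6 to 4.78 ± 2.34 CPM (SD, n = 3 each), with control replicate 1 at 47.2 CPM above its companions. Its call was lost without control replicate 1 and without CYT replicate 3.

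The thioredoxin and peroxiredoxin list had 5 genes higher and 0 lower of 18, with a median of 0.65 (27.8% higher, against 15.7% of all tested genes), and 9 higher and 1 lower with the replicate block. At an unadjusted p under 0.05 it had 8 higher and 2 lower, and DESeq2 called 8 higher and 0 lower. With the GC content and length offset it had 6 higher and 1 lower, and a median of 0.05. PRDX1, given above, is also in this list. Of the 3 stress-induced sestrins, SESN3 rose by 2.50 (SE 0.47, adjusted p = 0.00448) and SESN1 by 2.10 (SE 0.43, adjusted p = 0.00629), while SESN2 overlapped between the groups and was not called (log2 fold change 1.09, SE 0.40, adjusted p = 0.0656). SESN3 was highest in CYT replicate 2 at 147 CPM, against 55.3 and 51.4 CPM in the other CYT libraries and at most 20.1 CPM in control. SOD2, the mitochondrial superoxide dismutase, rose by 1.61 (SE 0.30, adjusted p = 0.00429) and PRDX6 by 0.84 (SE 0.25, adjusted p = 0.0333). PRDX6 lost its call in 8 of 19 alternatives.

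Of 18 tested genes of iron uptake, storage and export, 2 rose and 5 fell, with a median of -0.21, 4 rose and 5 fell with the replicate block, and 5 rose and 8 fell with the GC content and length offset. The genes that fell included STEAP3, an endosomal ferrireductase, which held 52.0, 38.2 and 53.5 CPM in control and 13.1, 3.35 and 14.6 CPM in CYT (fell by 2.21, SE 0.50, adjusted p = 0.0105). The iron chaperones PCBP2 and PCBP1, which deliver iron to ferritin, fell by 1.65 (SE 0.29, adjusted p = 0.00341) and 1.07 (SE 0.28, adjusted p = 0.0188). The importer SLC39A14 fell by 1.48 (SE 0.28, adjusted p = 0.00483) and BLVRA, which reduces the biliverdin that heme oxygenase makes, fell by 1.28 (SE 0.27, adjusted p = 0.00777). The importer SLC39A8 rose by 1.20 (SE 0.40, adjusted p = 0.0497) and lost its call in 8 of 19 alternatives, while PCBP1 lost its call in 3. TF, transferrin, rose from 0, 1 and 0 counts in control to 24, 24 and 20 counts in CYT, a ratio of 81.3 with a 95% counting interval of 14.1 to 3259. TFRC, the transferrin receptor, held 94.7, 169 and 132 CPM in control and 150.4, 394 and 150.0 CPM in CYT. These groups overlapped, and the log2 fold change of 0.81 (SE 0.43) had an adjusted p = 0.186. It was 0.17 without CYT replicate 2 and 0.43 without both libraries numbered 2, and TFRC was called with the GC content and length offset (0.73, adjusted p = 0.0259).

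Of 24 tested ferroptosis lipid and defence genes, 4 rose and 3 fell, with a median of 0.04, 6 rose and 5 fell with the replicate block, and 6 rose and 9 fell with the GC content and length offset. DHODH, a mitochondrial enzyme that reduces ubiquinone, held 33.0, 12.1 and 15.4 CPM in control and 2.26, 2.14 and 3.66 CPM in CYT, and it fell by 2.91 (SE 0.48, adjusted p = 0.00248). AIFM2 (FSP1), which reduces ubiquinone at the plasma membrane, held 147, 70.7 and 108 CPM in control and 41.2, 27.0 and 42.9 CPM in CYT. It fell by 1.55 (SE 0.36, adjusted p = 0.0113) and was called in 19 of 19 alternatives. CISD2 fell by 1.43 (SE 0.40, adjusted p = 0.0248), with control replicate 2 at 109 CPM, and 2 of 19 alternatives ended its call. LPCAT3, which places polyunsaturated chains in phospholipids, rose by 1.11 (SE 0.31, adjusted p = 0.0254) and SAT1 of polyamine breakdown rose by 1.0 (SE 0.32, adjusted p = 0.0408), and these lost their call in 5 and 9 of 19 alternatives. The lipoxygenase ALOX12 rose by 3.61 (SE 0.83, adjusted p = 0.0111) from a mean of 0.179 to 2.16 CPM, and DPP4 rose from a mean of 0.0532 to 1.46 CPM (adjusted p = 0.00634). ACSL4, which activates polyunsaturated fatty acids, held 74.6 to 139.9 CPM in control and 50.7 to 92.7 CPM in CYT, and was not called (log2 fold change -0.60, SE 0.36, adjusted p = 0.234). It was called lower with the GC content and length offset (-0.67, adjusted p = 0.0158), and ranged from -0.91 to -0.33 with 1 library left out.

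GPX4 and TXNRD1 need selenocysteine, and of a list of 24 other selenoproteins and factors that make them 0 rose and 2 fell, with a median of 0.31. Both that fell act in synthesis, and most of the list are selenoproteins themselves. At an unadjusted p under 0.05 the counts were 2 higher and 4 lower, DESeq2 called 2 higher and 2 lower, and the replicate block gave 3 higher and 4 lower, and the GC content and length offset 2 higher and 4 lower. EEFSEC, the elongation factor that brings selenocysteine tRNA to the ribosome, held 32.9, 18.7 and 28.9 CPM in control and 7.69, 2.42 and 7.47 CPM in CYT, and it fell by 2.19 (SE 0.47, adjusted p = 0.00789). TRIT1, a tRNA modifying enzyme, fell by 1.29 (SE 0.38, adjusted p = 0.0304) and lost its call in 7 of 19 alternatives.

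SLC7A11 and CHAC1 are also known targets of the amino acid response, of which 2 of 13 genes rose and 3 fell, with a median of -0.13, where 3 rose and 4 fell with the replicate block and 5 rose and 5 fell with the GC content and length offset. ATF4, its central transcription factor, held 387, 223 and 407 CPM in control and 103, 67.3 and 80.5 CPM in CYT, and it fell by 2.02 (SE 0.34, adjusted p = 0.00269). DDIT3 (CHOP) held 11.5, 8.63 and 12.0 CPM in control and 49.1, 50.9 and 45.0 CPM in CYT, and it rose by 2.17 (SE 0.30, adjusted p = 0.00129). ATF3 rose by 2.87 (SE 0.51, adjusted p = 0.00349), with CYT replicate 2 highest at 135 CPM. CHAC1, counted above, and TRIB3 (fell by 1.32, SE 0.38, adjusted p = 0.0279) were the other two that fell, and TRIB3 lost its call in 4 of 19 alternatives.

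**Figure D4:**
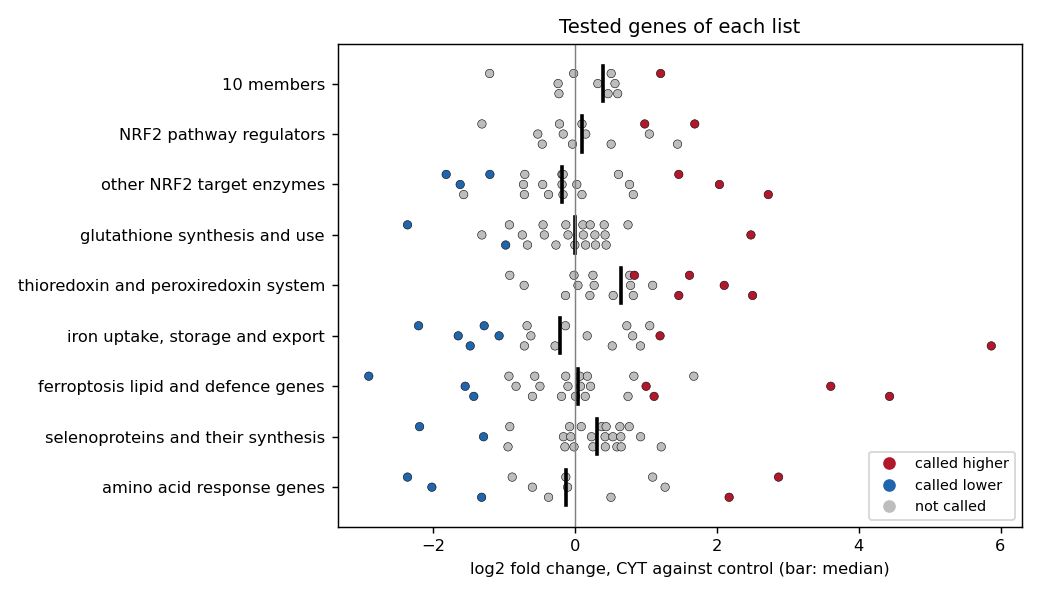
Log2 fold changes of CYT against control are plotted for the 10 genes in the top row and for every tested gene of the 8 pathway lists below it, 1 point per gene, red where called higher, blue where called lower and grey where not called, with a bar at each median. Among the 8 lists the thioredoxin and peroxiredoxin list has the highest median, 0.65, and the iron list the lowest, -0.21.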

How the data were processed

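RNA of 3 control and 3 CYT-treated MDA-MB-231-DR libraries was sequenced on an Illumina NovaSeq after mRNA separation. The authors deposited raw read counts per gene, from reads cleaned of ribosomal RNA and aligned with Hisat2, and FPKM values made with Stringtie. The submitters' processing notes name hg38 and FastQC 0.12.1. Which program counted the reads, whether it used strand and how it treated multi-mapping reads is not given in the sources used here. Every value column belonged to 1 of the 6 libraries.

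Counts were tested with edgeR 4.0.16 in R 4.3.3 (TMM, filterByExpr with minimum count 10, quasi-likelihood test of group, Benjamini-Hochberg adjustment over 15572 genes), with a biological coefficient of variation of 37.5%. A standard error is the absolute log2 fold change divided by the square root of F. DESeq2 1.42.0 and limma 3.58.1 on log2(FPKM + 1) and log2(FPKM + 0.1) were alternatives, with upper-quartile and RLE scaling, other filters (none, a mean of at least 5 CPM, protein-coding genes), ferritin pseudogene counts added to their parents, the replicate block and leaving out each library. The offset for GC content and length, with and without the block, and leaving out both libraries numbered 2 were chosen after seeing the data. This offset was fitted to each library without a term for group. It can therefore also take out a difference between the groups that follows GC content or length. The members and lists were chosen with earlier results of these data known. The named genes were the members, 8 fixed genes (NFE2L2, KEAP1, BACH1, SLC3A2, TFRC, ACSL4, AIFM2 and HMOX2), up to 2 called genes in each direction per list whose mean reached 1 CPM, and the 3 most like NQO1. The other called genes of the lists were named after their values were seen. Profiles were log2(CPM + 0.5).

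Libraries with the same number were taken as paired from the numbers in the labels and their deviations (r = 0.188, 0.458 and 0.124), although control replicate 1 correlated more with CYT replicate 3 (r = 0.303) and control replicate 3 more with CYT replicate 1 (r = 0.201). The tests were checked in 3 simulations in which 200 of 15572 genes changed by 2 on the log2 scale. At an adjusted p under 0.05, edgeR recovered 111 to 128 of the 200, and 10.1% to 12.6% of its calls were false. DESeq2 recovered 149 to 158 with 15.9% to 22.5% false, and the replicate block 77 to 107 with 4.9% to 6.6% false. The share of false calls of edgeR and DESeq2 was thus above the threshold in these simulations. No 2 libraries of a group agreed within sampling noise (chi-square per gene 24.8 to 148). Counting intervals cover counting error only. Loci were read from GENCODE release 29.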

Additional observations from a re-analysis of the deposited data

How the results depend on the processing

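NQO1 was called higher in every alternative run. Of the 10 genes, 3 were called higher without the libraries numbered 2 (NQO1, SRXN1 and FTH1), and 3 without CYT replicate 2 (NQO1, FTH1 and FTL), while calls over all tested genes moved from 15.7% higher and 12.9% lower to 21.5% and 19.6% in the former and to 18.6% and 17.0% in the latter. With DESeq2, the replicate block, the GC content and length offset, that offset with the block, without the libraries numbered 2, and without control replicate 2, 1 was called lower (HMOX1) in place of 0. Leaving out 1 library at a time, members called ranged from 1 to 3 higher and from 0 to 1 lower. The log2 difference in the GCLC to GCLM ratio then ranged from 0.542 to 0.8922, in FTH1 to FTL from -0.01013 to 0.1577, and in SLC7A11 to SLC3A2 from -0.8119 to 0.09572.

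The replicate block changed the call of HMOX1 (-1.18, adjusted p = 0.01035) and of no other member, and over all tested genes it called 3120 higher and 3089 lower in place of 2449 and 2002. DESeq2 called 2928 higher and 2354 lower, the GC and length offset 3351 and 4038, that offset with the block 3233 and 3917, the 5 CPM filter 1460 and 1393, and the 4 libraries without number 2 3400 and 3101. These fits tested different numbers of genes. The 5 CPM filter tested 11410 genes, of which 12.8% were called higher and 12.2% lower. The 4 libraries without number 2 tested 15847, with 21.5% and 19.6%. Upper-quartile scaling moved the median of all tested genes from 0.01 to 0.16.

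Directions turned for genes that were not called. With 1 library left out, the log2 fold change ranged from -0.5494 to 0.001972 for GCLM, from -0.9607 to 0.282 for TXNRD1 (also 0.01226 and 0.01106), from -0.6828 to 0.283 for SLC7A11 (also 0.2279 and 0.2115), from -0.207 to 0.2179 for KEAP1 (also 0.04112), from -0.2232 to 0.7969 for BACH1, from -0.09259 to 0.1765 for SLC3A2, and from -0.4541 to 0.4434 for HMOX2 (also 0.1048). SLC7A11 was 0.001776 with DESeq2, 0.00175 with RLE, 0.1272 with upper-quartile scaling, 0.08294 with the 5 CPM filter and 0.04239 over protein-coding genes. KEAP1 was 0.1112 with upper-quartile scaling, 0.06619 with the 5 CPM filter, 0.04621 over protein-coding genes, 0.09887 with the offset, 0.1185 with offset and block, and 0.2421 without the libraries numbered 2. FTL was -0.02927 with the offset and -0.02208 with the block added, NFE2L2 0.07937 without the libraries numbered 2, and HMOX2 0.006899 with upper-quartile scaling. The cause was not tested.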
